A study of Mus musculus with 5 samples.

Results

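The Smads carry the signal of transforming growth factor-β (TGF-β) and of the bone morphogenetic proteins (BMP) from the cell surface to the nucleus, and the corepressors Ski and Skil restrain them there. The 9 genes described here were chosen by name from the 20365 gene names in the SLAMseq tables of mouse cardiac fibroblasts (CF), and 1 interval at the 3′ end stands for each gene, the one with most CPM on average over labeled libraries. They are the receptor-regulated Smads Smad1, Smad5, Smad2 and Smad3, the common partner Smad4, the inhibitory Smads Smad6 and Smad7, and the corepressors Ski and Skil. A further receptor-regulated Smad, Smad9, is not a member and stands in the list of nuclear partners below. CF came from healthy hearts of adult male C57Bl/6J wildtype mice and were grown to confluency. Labeled replicates 1, 2 and 3 received 0.1 mM of the uridine analog 4-thiouridine (S4U) for 12 h, and unlabeled replicates 1 and 2 were kept in parallel for the same time without S4U. All 5 RNA samples were alkylated, so by the labels the groups differ in S4U only, and no TGF-β, BMP or receptor inhibitor was given to any of them. SLAMseq was run on 3 CF preparations by the study's statement of sample size, and the sources used here do not say which of them gave the unlabeled libraries.

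In the textbook view, ligand-bound receptors phosphorylate Smad1 and Smad5 on the BMP side and Smad2 and Smad3 on the TGF-β and activin side, and the phosphorylated proteins join Smad4 and enter the nucleus. Smad6 and Smad7 are made in response to the same signals and block the receptors or the receptor-regulated Smads. Ski and Skil (also called SnoN) bind the Smad complexes on DNA and recruit histone deacetylases, and in CF this pathway is known for its control of matrix genes and of the switch to myofibroblasts.

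S4U built into RNA during the labeling time is read as C in place of T after alkylation. The T>C conversion rate is the number of such conversions divided by the covered T positions, and it rises with the share of transcripts made during labeling. The question put to the data was whether the receptor-regulated Smads, the inhibitory Smads and the corepressors differ in this rate and in their transcript level.

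Apart from the parts of Skil and Smad4 given below, the 9 chosen intervals lie in the annotated last exon of their gene in GRCm39 (mm39). No other annotated gene overlaps them on either strand. The intervals run from 448 bases for Smad6 to 7017 bases for Smad2. The Skil interval reaches 332 bases and the Smad4 interval 1482 bases beyond the last annotated end of the gene.

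The libraries were made from the 3′ end of transcripts. Where a read or its transcript ended was not measured. In each of the 9 chosen intervals the last 50 bases hold a poly(A) signal, AATAAA or ATTAAA, read on the gene's own strand, as do 83.2% of the 9804 genes searched in the same way. The stretches around the poly(A) signal of 6 members follow from 5′ to 3′ in GRCm39, 30 bases each, with the signal in capitals. They lie near the end of the interval and need not reach it. Skil is shown with the signals near the ends of both of its nested intervals, which are described further on.
Smad1, chr8:80065024-80065053, minus strand: ctgtcattattgcttactttgATTAAAaaa
Smad5, chr13:56890157-56890186, plus strand: atactttgttttAATAAAcctcaaaatctg
Smad3, chr9:63554076-63554105, minus strand: aaacgcccttctAATAAActtttcaccgta
Smad6, chr9:63860360-63860389, minus strand: gtcactcttgatAATAAAgtgtttgcatta
Ski, chr4:155238534-155238563, minus strand: atgacgttgtacAATAAAggactttgcgag
Skil, nearer end, chr3:31176502-31176531, plus strand: tacctcacgtgaAATAAAtattttatatgg
Skil, farther end, chr3:31177017-31177046, plus strand: caagaaatatttATTAAAaattacaaactt
From the last base of the signal to the end of the interval there were 3 bases for Smad1, 12 for Smad5, 14 for both Smad6 and Ski, 39 for Smad3, and 29 and 38 for the nearer and the farther end of Skil.

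ATTTA, the core of AU-rich elements known from short-lived transcripts, was looked for in the last 400 bases of each interval on the gene's own strand. It was found in 7 of 9 members, with 3 copies each in Smad7 and Skil, 2 each in Smad2, Smad6 and Ski, and 1 each in Smad3 and Smad4. In Smad1 and Smad5 these letters were not in the window. Of 7918 genes with an interval this long, 53.6% hold at least 1 copy. The longer form TATTTAT, each copy of which contains an ATTTA, was present once in Smad3, Smad6, Smad7, Ski and Skil, and in 13.1% of the genes. TGTANATA, the letters bound by Pumilio proteins, was in the window of Smad7 only among the members, and in 13.3% of the genes. The copy of ATTTA nearest to the end is given for Smad6, Ski and Skil, which also hold the longer form, with ATTTA in capitals.
Smad6, chr9:63860601-63860630, minus strand: tacaacgtaattATTTAtatatggtgcaat
Ski, chr4:155238613-155238642, minus strand: aaagcttggcatATTTAtctatttctctgt
Skil, chr3:31177013-31177042, plus strand: attacaagaaatATTTAttaaaaattacaa
Such a match describes these letters and is no measured site.

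In GRCm39, the Smad1 interval is chr8:80065024-80066277 on the minus strand, that of Smad5 chr13:56885292-56890186 on the plus strand, that of Smad2 chr18:76437802-76444818 on the plus strand and that of Smad3 chr9:63554049-63557543 on the minus strand. Smad4 lies at chr18:73767861-73773328 on the minus strand, Smad6 at chr9:63860358-63860805 on the minus strand and Smad7 at chr18:75527437-75529005 on the plus strand. Ski is counted at chr4:155238532-155241797 on the minus strand and Skil at chr3:31172763-31177072 on the plus strand.

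The chosen intervals of all genes together held from 506045 reads (labeled replicate 3) to 1842706 reads (unlabeled replicate 1). Levels are given as RPM, the reads of a gene per 1000000 of these counted reads. The correlation of log2 CPM was 0.956 between the labeled and unlabeled libraries numbered 1 and 0.912 to 0.945 among the other 3, against 0.837 to 0.875 between these sets, so the libraries numbered 1 stood apart from the rest. The 11 fibroblast markers were detected in every library with a summed level between 32228 and 43401 RPM. Summed endothelial markers reached 96.4 to 212 RPM, immune markers 48.9 to 81.3, mural markers 3.01 to 13.8, cardiomyocyte markers 0.634 to 8.03 and epicardial markers 0.543 to 5.93, with Myl2, Myh11 and Msln at 0 in all 5 libraries. In bulk samples, fewer cells of a type and less RNA per cell cannot be told apart.

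All 9 genes carried newly made RNA after 12 h. Their T>C conversion rate was higher in labeled than in unlabeled libraries for 9 of 9 members, with unadjusted p from 5.13e-07 for Smad6 to 6.26e-05 for Smad3 by the beta-binomial likelihood-ratio test. This is the common case, since 94.6% of the 19240 intervals tested passed in this direction. Without S4U, the members' rates were between 0 and 0.0025. Smad5 had no conversion in 5501 and 3633 covered T of unlabeled replicates 1 and 2, which allows a rate of up to 0.000545 and 0.000826 when 3 conversions are taken as the limit of a count of 0. The exact binomial 95% upper limits, drawn in the plot of rates, were 0.00067 and 0.00101, and both kinds of limit cover counting error only. The highest background in unlabeled replicate 1 was that of Smad4, with 22 conversions in 8817 covered T, and in unlabeled replicate 2 that of Smad1, with 5 in 2823.

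The labeled rates of the members lay close to each other and close to the middle of all genes. The mean over the 3 labeled libraries ran from 0.0365 ± 0.0048 (SD, n = 3) for Ski to 0.0421 ± 0.0039 for Skil. Of 6723 genes with at least 200 covered T in every labeled library, the median of the mean rate was 0.0386 and the quartiles were 0.0341 and 0.0424, so each member's mean fell between the quartiles.

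Among the receptor-regulated Smads, Smad1, a BMP-side effector, had rates of 0.0361, 0.0400 and 0.0353 in labeled replicates 1, 2 and 3. Smad5, which acts beside Smad1, had 0.0424, 0.0448 and 0.0368. Smad2, which relays TGF-β and activin, had 0.0283, 0.0439 and 0.0387. Smad3, the DNA-binding effector of TGF-β in the fibrotic response, followed the same course with 0.0260, 0.0439 and 0.0437. Smad2 and Smad3 were thus low in labeled replicate 1, at percentiles 14.5 and 11.2 of all genes there, and above the median of labeled replicate 2 at percentiles 76.3 and 76.6. They were also the members with the fewest covered T in labeled replicate 1, 1628 for Smad2 and 654 for Smad3. Smad2 had still fewer in labeled replicate 3, 853, at its rate of 0.0387. In labeled replicate 1 the exact binomial 95% interval was 0.0208 to 0.0375 for Smad2 and 0.0152 to 0.0413 for Smad3. The median rate of that library was 0.0376. These intervals cover counting error only.

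Smad4, the partner shared by both branches, had rates of 0.0416, 0.0448 and 0.0368. Smad6, which acts mainly on BMP signals, had 0.0365, 0.0384 and 0.0448, with its highest value in labeled replicate 3. Smad7, which blocks TGF-β and BMP receptors alike, had 0.0386, 0.0437 and 0.0335, with its lowest value in that library.

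Ski, the corepressor first found as a viral oncogene's cellular counterpart, had 0.0380, 0.0404 and 0.0311. Skil, its relative and itself a TGF-β target, had 0.0433, 0.0378 and 0.0452. The members did not move together from library to library: Smad6 and Skil were highest in labeled replicate 3, where Smad1, Smad4, Smad5, Smad7 and Ski had their lowest value.

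**Figure D1:**
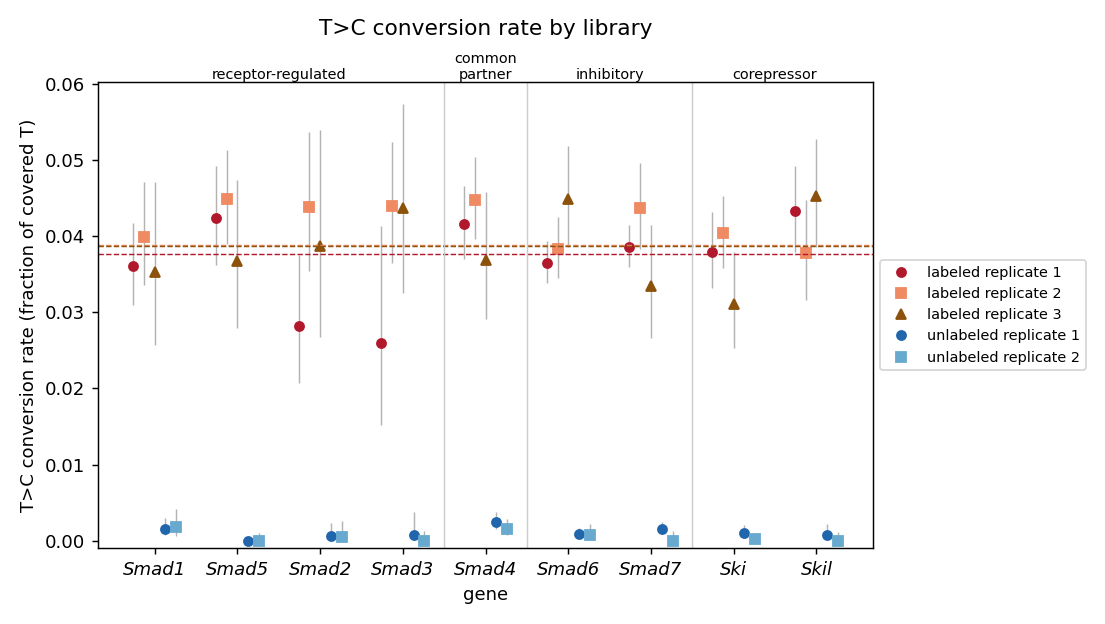
T>C conversion rate (y axis, conversions per covered T) of the 9 genes in each of the 3 labeled and 2 unlabeled libraries, with exact binomial 95% intervals as bars and the median rate over genes of each labeled library as a dashed line. Labeled rates lie between 0.0260 and 0.0452 and surround the library medians, and unlabeled rates lie between 0 and 0.0025.

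Against the typical gene of the same library, no member stood out. limma's test on the log2 odds of conversion minus the library median called 0 of 9 members above the median, against 2.23% of all genes, and 0 of 9 below it, against 9.27%. At an unadjusted p under 0.05 the limma count was also 0 of 9, against 23.3% of all genes in either direction. The differences ran from -0.09 (SE 0.09) for Ski to 0.12 (SE 0.08) for Skil on the log2 scale, with adjusted p of 0.586 and 0.418. The 95% intervals of the 9 differences together spanned -0.42 (Smad3) to 0.31 (Skil), so that odds of 0.747 times to 1.24 times the median lie within the intervals. The narrowest interval was that of Smad6, -0.11 to 0.19. Each member was above the median in 1 or 2 of the 3 labeled libraries, never in all or none. The number of all genes above the median rested on single libraries, with 150 in all, 53 without labeled replicate 1 and 32 without labeled replicate 2. With the share of reads that hold a conversion in place of the rate, 1 of 9 members was called above the median, Skil at 0.76 on the log2 scale (limma adjusted p = 0.0014), against 14.5% of all genes by the same measure. That share was 59.4%, 62.2% and 71.7% of Skil reads in labeled replicates 1, 2 and 3, and each Skil read covered 22.9, 25.3 and 28.6 T, against 18.2, 20.6 and 20.9 T per read over all genes. The part of T per read in this call was not tested.

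**Figure D2:**
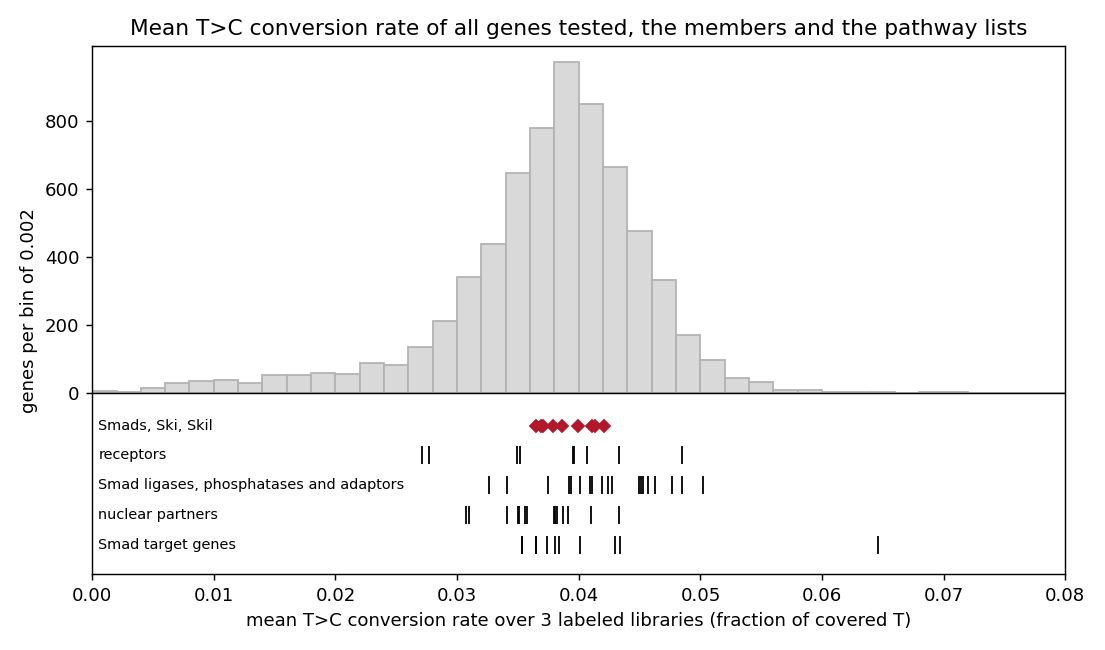
Mean T>C conversion rate over 3 labeled libraries for all 6723 genes tested (grey bars, genes per bin of 0.002), for the 9 Smad, Ski and Skil genes (diamonds) and for the tested genes of 4 pathway lists (ticks). The 9 genes span 0.0365 to 0.0421, inside the quartiles of all genes, while the lists reach from 0.0271 to 0.0646.

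The rates of the classes overlapped. The mean rate of the 4 receptor-regulated Smads was 0.0332, 0.0431 and 0.0386 in labeled replicates 1, 2 and 3. It was 0.0376, 0.0410 and 0.0391 for the inhibitory Smads and 0.0406, 0.0391 and 0.0382 for the corepressors. The mean of inhibitory Smads and corepressors exceeded that of the receptor-regulated Smads by 0.00591 in labeled replicate 1, was lower by a difference of -0.00309 in labeled replicate 2 and was higher by 4.08e-05 in labeled replicate 3. The mean difference was 0.000955 ± 0.00457 (SD, n = 3), smaller than its own spread, and the smallest two-sided p that an exact sign-flip test can give with 3 libraries is 0.25. That test could therefore not separate any classes, and nothing is read from it. By their values alone, the inhibitory Smads, the corepressors and the receptor-regulated Smads overlapped in rate at this depth and number of libraries. Labeling was read at a single time of 12 h, and half-lives were not estimated from it.

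Of the 36 pairs of members, 7 had the same order of rate in all 3 labeled libraries. As no pair can reach an exact sign-flip p below 0.25, no order of rates is read from them. The count was 14 without labeled replicate 1 and 18 without labeled replicate 2 or without labeled replicate 3, since a shared order is easier to reach in fewer libraries.

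Transcript levels separated the members more than rates did, and 28 of the 36 pairs kept 1 order of level in all labeled libraries. Smad6 had 676, 329 and 340 RPM in labeled replicates 1, 2 and 3, against 279 in unlabeled replicate 1 and 163 in unlabeled replicate 2. Smad7 had 611, 215 and 247 in the labeled and 304 and 142 in the unlabeled libraries. Both inhibitory Smads were highest in labeled replicate 1 and lowest in unlabeled replicate 2.

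Ski had 204, 243 and 243 RPM in the labeled and 169 and 242 in the unlabeled libraries. Skil had 142, 113 and 237 in the labeled and 92.8 and 110 in the unlabeled libraries, and its value in labeled replicate 3 stood above the others. Smad4 had 222, 228 and 182 in the labeled and 231 and 288 in the unlabeled libraries.

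Smad1 had 180, 136 and 126 RPM in the labeled and 167 and 137 in the unlabeled libraries. Smad5 had 137, 177 and 130 in the labeled and 159 and 171 in the unlabeled libraries. The pair overlapped, and neither was above the other in every library.

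Among the members, the TGF-β side of the receptor-regulated Smads was the lowest by the mean of the labeled libraries. By the same mean Smad9, a receptor-regulated Smad outside the members, was at 23.6 RPM. Smad2 had 48.2, 65.3 and 65.2 RPM in the labeled and 70.0 and 84.3 in the unlabeled libraries. Smad3 had 25.4, 95.4 and 96.8 in the labeled and 43.4 and 128 in the unlabeled libraries, so it was below Smad2 in both libraries numbered 1 and above it in the other 3.

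By the mean of the labeled libraries the order of levels was Smad6 at 448 ± 197 RPM (SD, n = 3), Smad7 at 358 ± 220, Ski at 230 ± 22.3, Smad4 at 211 ± 25.3, Skil at 164 ± 64.9, Smad5 at 148 ± 25.4, Smad1 at 147 ± 28.8, Smad3 at 72.5 ± 40.8 and Smad2 at 59.6 ± 9.83. Of these neighbours, Smad6 was above Smad7 and Smad1 was above Smad3 in each labeled library, and the other neighbours changed places in at least 1 of them. The second place of Smad7 rested on labeled replicate 1, without which its mean was 231 RPM, below that of Ski at 243. Neither unlabeled library kept the order: Smad7 was highest in unlabeled replicate 1 and Smad4 in unlabeled replicate 2. Among 9806 genes tested for reads, the members lay between percentile 64.5 (Smad2) and percentile 96.5 (Smad6) of the labeled mean. Divided by the length of the interval, Smad6 (1000.4 RPM per kb) and Smad7 (228) stayed first and Smad3 (20.8) and Smad2 (8.49) last, while Smad1 moved from the seventh to the third place at 118. With reads summed over every interval of a gene, where a read in overlapping intervals counts more than once, Smad4 came first at 540 RPM, ahead of Smad7 at 488 and Smad6 at 457. A 3′ end library gives reads from the end of a transcript whatever its length, so the values without length are the main ones.

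**Figure D3:**
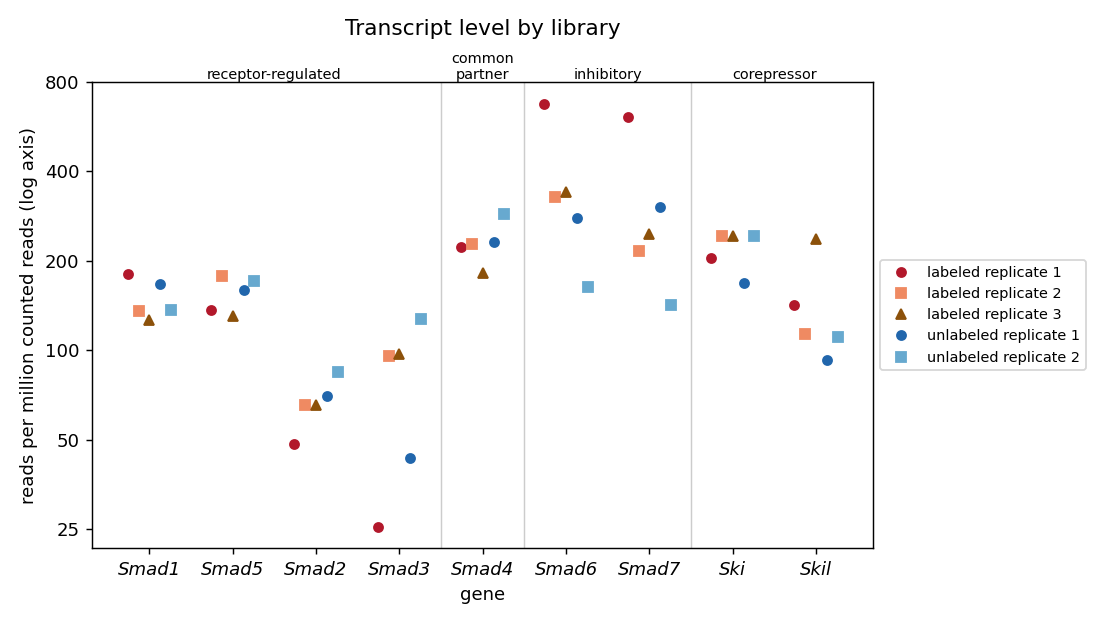
Level in RPM (log axis) of the 9 genes in each of the 3 labeled and 2 unlabeled libraries. Smad6 and Smad7 reach 676 and 611 in labeled replicate 1, and Smad3 falls to 25.4 and 43.4 in the libraries numbered 1, against 95.4 to 128 in the other libraries.

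Much of the spread of Smad6, Smad7 and Smad3 followed the replicate number. The Smad7 level of labeled replicate 1 was 2.64 times the mean of labeled replicates 2 and 3, and that of unlabeled replicate 1 was 2.15 times that of unlabeled replicate 2. These ratios were 2.02 and 1.72 for Smad6, and 0.264 and 0.340 for Smad3. Of 9746 genes with reads in every library, 4.83% had both ratios above 2, as Smad7 did, and 8.32% had both ratios below 0.5, as Smad3 did. The other 6 members had both ratios between 0.697 and 1.38.

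No member differed in reads between labeled and unlabeled libraries by edgeR's quasi-likelihood test over all 5 libraries, fitted without the replicate number. It called 0 of 9 members, against 0% of 9806 genes with more and 0% with fewer reads, while 279 genes had more and 307 fewer reads at an unadjusted p under 0.05, Smad6 alone of the members among them. DESeq2 called 9 genes with more and 7 with fewer reads and none of the members. The log2 fold change was 1.10 (SE 0.40) for Smad6 with an unadjusted p of 0.0295 and an adjusted p of 0.768 in edgeR. It was 0.76 (SE 0.52) for Smad7 and 0.76 (SE 0.39) for Skil, with adjusted p of 0.991 and 0.908 in edgeR. The other 6 members lay between -0.30 (Smad2) and 0.23 (Ski). With the replicate number as a block, edgeR did call Smad6 at 1.22 and Smad7 at 0.89, among 529 genes with more and 617 with fewer reads. That fit has 1 residual degree of freedom, no label says what the number stands for, and it is described in the last section.

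The labeled values of Smad6 and Skil lay above both unlabeled values, as in 8.21% of genes, and those of Smad2 and Smad4 lay below both, as in 13.1% of genes. Within the libraries numbered 1, the log2 ratio of labeled to unlabeled was 1.27 for Smad6, and it was 1.02 and 1.06 for labeled replicates 2 and 3 over unlabeled replicate 2. The corresponding ratios for Smad7 were 1.01, 0.60 and 0.80. The ratios of labeled replicates 2 and 3 share unlabeled replicate 2. Skil gave 0.62, 0.03 and 1.10, so its difference was near 0 for labeled replicate 2. Without both libraries numbered 1, a comparison chosen after seeing the data, edgeR called Smad6 with a log2 fold change of 1.08 (adjusted p = 0.0027) among 164 genes with more and 205 with fewer reads. This fit holds 1 unlabeled library, which is assumed to vary like the labeled ones. The Smad7 log2 fold change was 0.15 without labeled replicate 1 and 1.36 without unlabeled replicate 1. That of Smad3 ran from -0.81 without unlabeled replicate 1 to 0.85 without unlabeled replicate 2. That of Smad6 ran from 0.70 without labeled replicate 1 to 1.48 without unlabeled replicate 1. For Skil it ran from 0.39 without labeled replicate 3 to 0.98 without labeled replicate 2. S4U itself is the only labelled difference between the groups, and its part in these read differences was not tested.

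**Figure D4:**
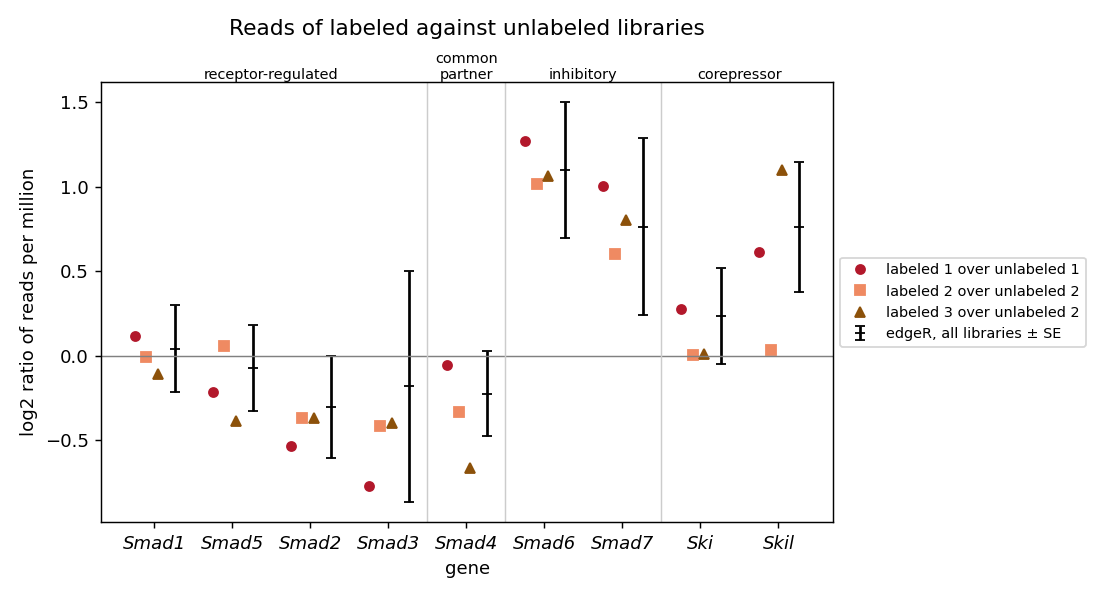
Log2 ratio of RPM, labeled over unlabeled, for labeled replicate 1 against unlabeled replicate 1 and labeled replicates 2 and 3 against unlabeled replicate 2. No label gives these sets. Black bars show edgeR's log2 fold change over all 5 libraries and its standard error. Smad6 lies between 1.02 and 1.27 and Smad7 between 0.60 and 1.01 in these ratios, and Smad2, Smad3 and Smad4 lie below 0 in all of them.

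For 3 members, nested intervals showed what share of the reads was counted only in the longer interval. These counts do not give where a read or its transcript ended. The tables count Smad6 on a 279-base interval and on the chosen one, which extends it by 169 bases at the 3′ end. The extension alone took 67.9%, 34.9% and 33.1% of the Smad6 reads in labeled replicates 1, 2 and 3, against 60.4% in unlabeled replicate 1 and 34.0% in unlabeled replicate 2. The exact 95% intervals of the libraries numbered 1 began at 65.0% and 56.0%, and those of the other 3 ended at 41.8% or below. The share was thus high in both libraries numbered 1, labeled or not, and lower in the other 3, as was the Smad6 level within each group. The rate was lower in the Smad6 extension than in the shared part in 3 of 3 labeled libraries, at 0.0360 ± 0.0032 (SD, n = 3) against 0.0423 ± 0.0040.

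Skil, counted on 3786 shared bases and an extension of 524, had 63.0%, 69.6% and 55.0% of its reads in the extension in the labeled and 61.4% and 64.5% in the unlabeled libraries. Most Skil reads were therefore counted only in the part that holds the farther poly(A) signal shown above and lies largely beyond the annotated end. The rate in the Skil extension was the higher in 3 of 3 labeled libraries, at 0.0434 ± 0.0047 (SD, n = 3) against 0.0391 ± 0.0023. In labeled replicate 2 the 2 rates were close, at 101 conversions in 2648 covered T against 28 in 769. In Smad4 an extension of 1390 bases took 7.69% to 18.5% of the reads over the 5 libraries, and the rate in it was the higher in 1 of 3 labeled libraries. With 3 libraries an exact sign-flip p cannot fall below 0.25, so no order of rates is read from the nested intervals of Smad6, Skil or Smad4.

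**Figure D5:**
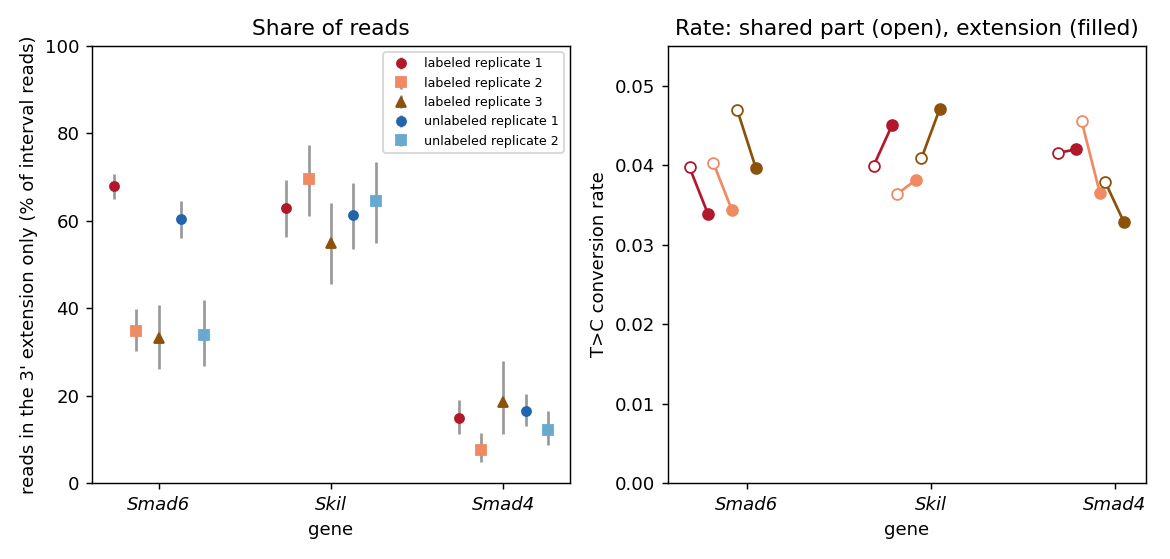
Left, share of reads in the 3′ extension only (% of interval reads) of Smad6, Skil and Smad4 in 5 libraries with exact binomial 95% intervals; right, T>C conversion rate in the shared part (open) and in the extension (filled) in the 3 labeled libraries. The Smad6 share is 67.9% and 60.4% in the libraries numbered 1 and 33.1% to 34.9% in the others, and its rate falls from the shared part to the extension in each labeled library, while that of Skil rises. These differences in rate were not tested.

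Of 54 tested genes around the Smads, limma called 4 above the library median, 7.41%, against 2.23% of all genes tested, and 2 below it, 3.7%, against 9.27%. In both directions together these were 11.1% of the list genes and 11.5% of all genes. The lists were not tested against other genes, and the genes called are named as a description. At an unadjusted p under 0.05 limma's counts were 4 of 9 receptors, 5 of 19 ligases, phosphatases and adaptors, 1 of 14 nuclear partners and 3 of 12 target genes, against 23.3% of all genes. Of 12 receptor genes, 9 had enough covered T, with a median rate of 0.0395, and limma called 0 above and 2 below the library median. The 2 were Eng, the coreceptor endoglin, at 0.0277 ± 0.0029 (SD, n = 3; limma adjusted p = 0.0028), and Acvrl1, the BMP9 receptor kinase ALK1, at 0.0271 ± 0.0078 (limma adjusted p = 0.042). Both are also expressed by endothelial cells. The study's protocol for isolating CF depletes cells that carry CD31, the product of Pecam1, and CD45, the product of Ptprc, and the summed endothelial markers left are given above. The part of such cells in these rates was not tested. Without the trend in its variance, limma's adjusted p for Eng was 0.0757. The Acvrl1 call was lost without labeled replicate 1 or 3, with limma adjusted p up to 0.184. The highest rates of the 9 receptors tested were 0.0485 ± 0.0069 for Acvr1 and 0.0433 ± 0.00085 for Tgfbr2, the TGF-β type II receptor, both short of the threshold with limma adjusted p of 0.105 and 0.199.

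Of 25 Smad ligases, phosphatases and adaptors, 19 could be tested, with the highest median rate of the 4 lists, 0.0424. limma called 2 above and 0 below the median. They were Ipo7, an importin that carries Smads into the nucleus, at 0.0485 ± 0.0019 (limma adjusted p = 0.026), and Strap, a receptor-associated protein named here after its values were seen, at 0.0457 ± 0.0031 (limma adjusted p = 0.049). Without labeled replicate 1 or 2, limma's adjusted p was up to 0.154 for Ipo7, and the Strap call was lost without any one of the labeled libraries. The ubiquitin ligase Nedd4l had the highest rate of the 19 tested, 0.0502 ± 0.0045, and Stub1 (0.0326 ± 0.0074) and the deubiquitinase Usp4 (0.0341 ± 0.0044) had the lowest of them, none called.

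Of 15 nuclear partners, 14 were tested, with a median rate of 0.0369, and limma called 0 in either direction. The list and this median include Smad9, which is a receptor-regulated Smad, at 0.0341 ± 0.0068. The homeodomain repressor Tgif1 was near the low end of the list at 0.0310 ± 0.0070. The deacetylase Hdac1 had the highest of those tested at 0.0433 ± 0.0082, followed by the acetyltransferase Crebbp at 0.0410 ± 0.0019.

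All 12 Smad target genes were tested, with a median rate of 0.0377, and limma called 2 above and 0 below the median. Tagln, a smooth muscle actin-binding protein of myofibroblasts, had the highest rate at 0.0646 ± 0.014 (limma adjusted p = 0.0017, and 0.0748 without the trend in limma's variance), beside a background of 0.0136 and 0.00433 in unlabeled replicates 1 and 2. Without that trend, limma called none of the 6 genes of these lists that it called with it. Ccn2, the connective tissue growth factor, had 0.0434 ± 0.00014 (limma adjusted p = 0.013), a call that was lost without labeled replicate 1 or 2 (adjusted p up to 0.0964). Ltbp2 and Bhlhe40 were lowest, 0.0353 ± 0.0039 and 0.0354 ± 0.0052.

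In reads, edgeR called 0 genes of each list, with 0 of 10 receptors, 1 of 23 ligases, phosphatases and adaptors, 0 of 14 nuclear partners and 5 of 12 target genes at an unadjusted p under 0.05, against 5.98% of all genes. The median log2 fold change of the target genes was 0.60, with 11 of 12 above 0, against 0.02 and 5069 of 9806 for all genes tested. Summed fibroblast markers were also higher in the labeled libraries, at 39519, 40048 and 43401 RPM against 32228 and 36048 in the unlabeled ones. The single markers did not all go this way. Col1a1 was higher in each labeled library, at 13293, 12755 and 13058 RPM against 8785 and 9661. Pdgfra was lower in each, at 525, 524 and 516 RPM against 722 and 841. Ddr2 was lower as well, at 277, 332 and 245 RPM against 382 and 453. Summed epicardial markers were at 3.81, 5.02 and 5.93 RPM against 0.543 and 1.00, with Msln at 0 throughout. Nearly all of this sum was Wt1, with 6, 5 and 3 reads against 1 and 1. The part of fibroblast or epicardial markers in the reads of the target genes was not tested. The median was -0.10 for receptors, -0.01 for ligases, phosphatases and adaptors, -0.04 for nuclear partners and 0.04 for the 9 members. Ccn2 had 3061, 2599 and 3306 RPM in the labeled and 1676 and 1372 in the unlabeled libraries.

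Over the 3 labeled libraries, the list gene whose log2 odds ran closest to each member was taken from 54 tested list genes by the root mean square difference. Smurf1, a ubiquitin ligase for Smad1 and Smad5, was nearest to Smad1 at 0.03, the smallest such difference. Ctdsp2, a phosphatase, was nearest to Smad4 (0.07), Smad5 (0.09) and Smad7 (0.04). Bhlhe40 was nearest to Smad2 (0.11) and Smad3 (0.18), and like them it was low in labeled replicate 1, at a rate of 0.0294 against 0.0387 and 0.0380. The nearest genes were Hdac3 for Smad6 (0.07), Ep300 for Ski (0.08) and the phosphatase Ppm1a for Skil (0.06). These are descriptions over 3 libraries that share S4U medium and processing.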

How the data were processed

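SLAMseq libraries of CF, 3 labeled and 2 unlabeled, were grouped by the submitters' labels. Per the submitters' notes and the methods of the study, the authors used UMI-tools for the UMIs and for duplicates, and SLAM-DUNK 0.4.3 for mapping to mm39 and counting on 3′ intervals. The authors deposited, per interval and library, read counts, covered T counts and conversion counts, none of them normalized. The rate column the authors deposited is a fraction, conversions per covered T. The deposited CPM divides reads by a library number 7.58 to 28.9 times the reads counted on 1 interval per gene, so levels were recomputed as RPM of the counted reads.

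Rows that repeat an interval were dropped. The T content of 40380 of 40380 intervals matched GRCm39, and coordinates count from 1. Rates were compared by a beta-binomial likelihood-ratio test (chi-square, two-sided, unadjusted 0.05, all intervals with at least 1 covered T per library), reads by edgeR's quasi-likelihood test (TMM, filterByExpr) and rates against the library median by limma on log2 odds (pseudocount 0.5, at least 200 covered T), with Benjamini-Hochberg adjustment over all genes at 0.05. Named were the 9 members, the 2 highest and 2 lowest genes of each list by rate, genes called in reads and the list gene nearest to each member. Some of these results are not reported here. The members and lists were chosen with earlier results of these data known. Tests were tried on simulated data. Alternatives were other thresholds, pseudocounts, filters and scalings, DESeq2, the replicate number as a block, other intervals and each library left out. The tests ran in limma 3.58.1, edgeR 4.0.16 and DESeq2 1.42.0 under R 4.3.3, and the remainder in numba 0.67.0, pandas 2.3.3, scipy 1.17.1 and numpy 2.4.6 under Python 3.11.15, with figures by matplotlib 3.10.9.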

Additional observations from a re-analysis of the deposited data

How the results depend on the processing

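The higher labeled rate of 9 of 9 members and the absence of a limma call below the median held under every alternative that could test them. With at least 1000 covered T, Smad2 and Smad3 could not be tested, and 7 of 7 other members kept a higher labeled rate. The number of intervals with a higher labeled rate was 10765 with at least 200 and 3154 with at least 1000 covered T, and 10629 with 1 interval per gene, in which fewer intervals are tested. Genes above the library median numbered 17 without a trend, 976 by share of reads and 71 with intervals summed, and 32 to 148 with 1 labeled library left out. Genes below it numbered 377 without a trend and 1208 by share of reads, and by share of reads 1 member, Skil, was above. Pairs of members with 1 order of rate numbered 14 to 18 with 1 library left out.

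Reads depended on the libraries numbered 1. DESeq2 called 9 genes with more and 7 with fewer reads. Without both libraries numbered 1 these were 164 and 205, and 1 member was called. With the replicate number as a block, a fit with 1 residual degree of freedom, they were 529 and 617, and 2 members were called with more reads, Smad6 at 1.22 (edgeR adjusted p = 2.22e-12) and Smad7 at 0.89 (edgeR adjusted p = 1.06e-06). No label says what the number stands for. Over genes, labeled and unlabeled libraries with number 1 deviated together from their group's mean (r = 0.784), and labeled replicates 2 and 3 both deviated with unlabeled replicate 2 (r = 0.638 and 0.482). With 2 unlabeled libraries these deviations mirror each other, so the values are not separate evidence. The cause of these changes was not tested. Labeled replicate 3, with 506045 counted reads, has the fewest covered T of the labeled libraries for the members other than Smad3 and Skil.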
